A study of Mus musculus with 6 samples.

Results

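Killer lectin-like receptors are C-type lectin-like surface proteins of natural killer (NK) cells that activated CD8+ T cells also express, and most of them lack a signalling tail of their own or carry an inhibitory one. The 9 genes described here were taken by name from the 27179 gene numbers of the count table: the receptor genes Klrd1, Klrk1, Klrc1, Klre1, Klrb1c and Klrg1, and the adaptor genes Hcst, Tyrobp and Fcer1g. They were measured in spleen cultures of gBT-I mice, in which a transgenic receptor directs CD8+ T cells to gB, an envelope glycoprotein of herpes simplex virus. All cultures were activated with a gB peptide and lipopolysaccharide, received IL-2 from day 2 to day 5 and were harvested on day 6. The 3 butyrate libraries came from cultures that also received butyrate, a short-chain fatty acid that inhibits histone deacetylases, from day 3, and the 3 control libraries came from cultures without it. The labels give no age, no butyrate dose and no sort, so cells other than CD8+ T cells may be present, and in such bulk RNA fewer cells of a type and less RNA per cell cannot be told apart.

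As background, KLRD1 (CD94) pairs with chains of the NKG2 family, and with NKG2A, the product of Klrc1, forms an inhibitory receptor for the class I molecule Qa-1b. KLRK1 (NKG2D) binds stress-induced ligands and signals through HCST (DAP10), which recruits phosphatidylinositol 3-kinase, while TYROBP (DAP12) and FCER1G (the Fc receptor gamma chain) carry an immunoreceptor tyrosine-based activation motif (ITAM) that recruits SYK and ZAP70. In CD8+ T cells these receptors mark antigen-experienced cells, KLRG1 most of all short-lived effector cells.

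Libraries held 5383380 to 5809517 counts with butyrate and 5415021 to 6244350 in control. Levels are given as CPM (counts over the library total, scaled by edgeR's TMM factors), and 1 count in a library was worth 0.16 to 0.186 CPM. Cd8a, the defining marker of the labelled cell type, stood at 436 ± 55.1 CPM with butyrate and 454 ± 62.1 CPM in control (SD, n = 3 each). Of the 8 NK cell markers, 2 passed the filter on low counts. Ncr1, the most specific of them, had 0, 0 and 1 counts in the butyrate libraries and 0, 1 and 1 in the control libraries, and Klra9 and Klrh1 had 0 counts in all 6, whereas Klri2 averaged 17.1 CPM with butyrate and 12.5 CPM in control.

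The windows around the annotated starts of the 4 receptor genes of the NK gene complex that have one (RefSeq, GRCm38.p6, 250 bases before to 50 after the start) are shown. Klrd1, the receptor gene that fell, has no window, so genes that moved in opposite directions cannot be compared here. The windows are written on the gene's strand, with capitals at matches to TGTGGT on either strand (ACCACA on the other), the core bound by RUNX factors. The start used for Klre1, for Klrk1 and for Klrc1 lies inside the span given for the gene, since longer transcripts begin upstream.
Klrb1c, chr6:128788592-128788891, minus strand: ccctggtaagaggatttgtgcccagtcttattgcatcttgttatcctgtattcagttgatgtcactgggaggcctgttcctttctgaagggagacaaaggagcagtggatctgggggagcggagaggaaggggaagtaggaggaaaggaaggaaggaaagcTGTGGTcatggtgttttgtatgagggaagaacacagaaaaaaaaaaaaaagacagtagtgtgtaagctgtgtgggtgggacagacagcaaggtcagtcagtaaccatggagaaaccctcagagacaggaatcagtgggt
Klre1, chr6:129577963-129578262, plus strand: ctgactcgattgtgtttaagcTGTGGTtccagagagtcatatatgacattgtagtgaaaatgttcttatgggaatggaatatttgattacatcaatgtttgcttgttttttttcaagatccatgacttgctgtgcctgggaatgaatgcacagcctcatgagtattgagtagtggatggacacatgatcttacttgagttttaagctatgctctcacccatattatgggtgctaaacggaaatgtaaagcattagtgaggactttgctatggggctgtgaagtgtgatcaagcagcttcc
Klrk1, chr6:129623815-129624114, minus strand: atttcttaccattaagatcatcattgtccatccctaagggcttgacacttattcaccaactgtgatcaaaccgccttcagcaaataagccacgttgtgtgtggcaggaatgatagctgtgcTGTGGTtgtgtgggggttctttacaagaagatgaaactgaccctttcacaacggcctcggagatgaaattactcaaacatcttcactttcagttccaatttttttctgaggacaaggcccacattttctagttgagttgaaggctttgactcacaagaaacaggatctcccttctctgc
Klrc1, chr6:129678924-129679223, minus strand: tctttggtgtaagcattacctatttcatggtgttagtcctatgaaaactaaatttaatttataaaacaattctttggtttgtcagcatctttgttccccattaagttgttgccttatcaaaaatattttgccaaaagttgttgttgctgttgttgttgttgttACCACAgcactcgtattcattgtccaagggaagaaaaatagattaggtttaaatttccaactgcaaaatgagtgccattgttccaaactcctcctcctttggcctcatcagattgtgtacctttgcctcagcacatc
Each of these windows held 1 match, whose first base lay at -89 from the start in Klrb1c, -229 in Klre1, -129 in Klrk1 and -87 in Klrc1. Over the first-listed windows of 27025 genes, 16.9% held the letters. Of the 6 genes of the set with a window, 5 did, the fifth being Fcer1g. The match was therefore present in receptor genes that rose (Klrb1c, Klre1) and in genes that were not called (Klrk1, Klrc1, Fcer1g), and the motif was chosen after the sequences had been seen. Other letters searched on both strands were held by 0 to 3 of the 6. TCACACC (T-box) was in 0 of 6 and 3.96% of all windows, TGANTCA (AP-1) in 1 of 6 and 7.93%, TTCNNNGAA (STAT) in 0 of 6 and 8.47%, GGGCGG (SP1) in 0 of 6 and 35.9%, and AGGAAG (ETS) in 3 of 6 and 35.1%. Matches of AGGAAG can overlap other motifs, and none of these counts shows binding.

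With butyrate, 3 of the 6 receptor genes rose (Klrb1c, Klre1 and Klrg1) and 1 fell (Klrd1), while Klrk1 and Klrc1 were not called. Of the adaptor genes, Tyrobp rose and Hcst and Fcer1g were not called. By edgeR's quasi-likelihood test at a Benjamini-Hochberg adjusted p under 0.05, 5 of the 9 genes (55.6%) were called, against 45.9% of the 11740 genes tested, so the set as a whole was called about as often as genes in general. Over all genes 23.5% were called higher and 22.5% lower, and with upper quartile scaling 28.4% and 17.6%. The 5 called genes did not overlap between the groups, which held for 57.1% of all genes. Klrg1 reached the filter's level of 1.82 CPM in 3 butyrate libraries and 0 control libraries, and Klre1 and Tyrobp in 3 and 1. Genes that enter through one group in this way can hardly be seen to do other than rise, and the share of called genes is given as a description.

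**Figure D1:**
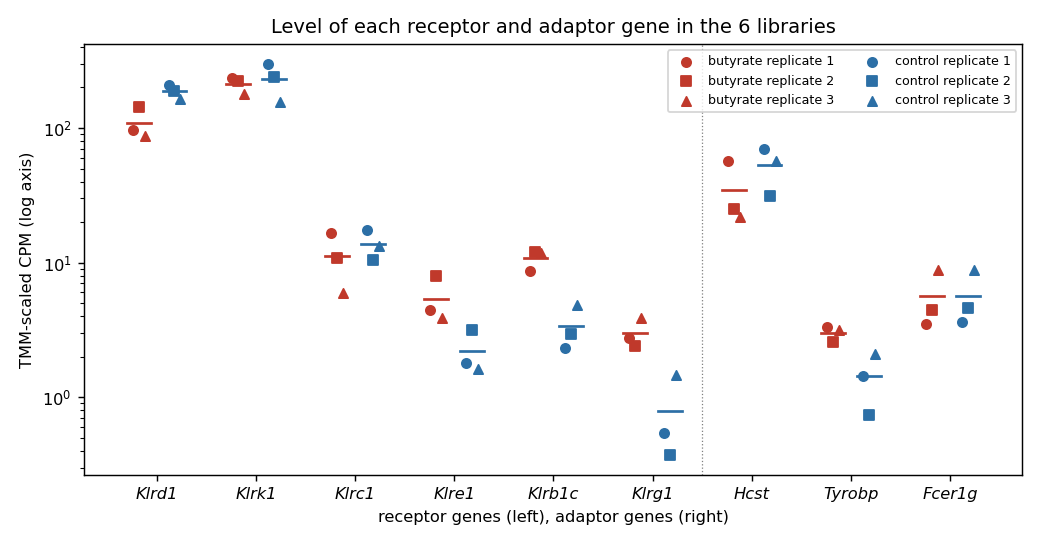
TMM-scaled CPM (log axis) of the 6 receptor and 3 adaptor genes in each library, with butyrate in red to the left of control in blue, marker shapes for replicate numbers and short lines for group means. The butyrate points of Klrd1 lie below all control points, those of Klre1, Klrb1c, Klrg1 and Tyrobp lie above them, and the others overlap.

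Klrd1, the partner chain that NKG2A needs to reach the surface (gene 16643, chromosome 6, 129588092 to 129598775, plus strand), was the gene of the set that fell. It stood at 96.7, 143 and 87.6 CPM in the butyrate libraries and at 209, 188 and 165 CPM in the control libraries. Every butyrate library was below every control library. Its log2 fold change was -0.78 (SE 0.176, edgeR adjusted p = 0.00673), a level 0.583 times that of control, and it was lower in 3 of 3 same-numbered pairs. Klrd1 was called in all 15 alternative fits.

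Klrc1 encodes NKG2A, the inhibitory chain that KLRD1 carries (gene 16641, chromosome 6, 129666015 to 129682852, minus strand). It had 16.6, 10.8 and 5.91 CPM with butyrate and 17.5, 10.4 and 13.3 CPM in control, and the groups overlapped. Its log2 fold change of -0.30 (SE 0.334) did not pass the test (edgeR adjusted p = 0.487). The log2 ratio of Klrc1 to Klrd1 within a library was -3.34 ± 0.715 with butyrate and -3.76 ± 0.321 in control (SD, n = 3 each, not scaled for length), with overlapping groups and an exact two-sided permutation p of 0.6 (0.6 after adjustment over 5 ratios). With 3 libraries in each group this test cannot go below 0.1. It therefore cannot decide whether the fall of Klrd1 differed from the change of Klrc1. Klrc2, the gene of the activating chain NKG2C, was not called either, at 1.99 ± 0.745 CPM with butyrate and 3.33 ± 2.03 CPM in control. Klrc1, Klrc2 and Klrc3 are close copies, so the split of reads among them is uncertain.

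Klrk1, which encodes NKG2D (gene 27007, chromosome 6, 129610323 to 129623903, minus strand), had the highest CPM of the receptor genes, not corrected for length. It had 234, 225 and 179 CPM with butyrate and 301, 238 and 155 CPM in control. The lowest and the highest library were both controls, and the log2 fold change was -0.12 (SE 0.213, edgeR adjusted p = 0.676). Its sign turned to 0.13 without control replicate 1. Its adaptor gene Hcst (gene 23900, chromosome 7, 30417712 to 30419854, minus strand) had 57.1, 24.9 and 22.0 CPM with butyrate and 70.0, 31.2 and 56.9 CPM in control. The groups overlapped, yet Hcst was lower in 3 of 3 same-numbered pairs. Its log2 fold change of -0.61 (SE 0.38) was not called (edgeR adjusted p = 0.219), but with the replicate number as a block it was -0.64 and called (adjusted p = 0.0202, in a fit that called 53.8% of all genes). It was also called without butyrate replicate 1 (-1.17, adjusted p = 0.0163). The highest adjusted p over 15 alternatives was 0.519. The log2 ratio of Klrk1 to Hcst was 2.73 ± 0.612 with butyrate and 2.15 ± 0.74 in control (SD, n = 3 each, exact permutation p = 0.3, adjusted 0.375).

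Klrb1c, the gene of the activating receptor NK1.1 (gene 17059, chromosome 6, 128778485 to 128788641, minus strand), rose. It stood at 8.69, 12 and 11.8 CPM with butyrate and at 2.34, 2.97 and 4.87 CPM in control, from 47 to 70 and 13 to 30 counts a library. The lowest butyrate library was above the highest control library. Its log2 fold change was 1.66 (SE 0.283, edgeR adjusted p = 0.00161), a 3.16-fold higher level, and it was called in all 15 alternative fits. The related gene Klrb1f was not called (3.73 ± 0.472 CPM with butyrate and 4.49 ± 0.364 CPM in control, SD, n = 3 each, edgeR adjusted p = 0.368), and Klrb1b had 0, 2 and 5 counts with butyrate and 0, 0 and 2 in control. The NKR-P1 genes resemble each other, so reads may be shared among them.

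Klre1 encodes a lectin-like chain that pairs with KLRI1 or KLRI2 (gene 243655, chromosome 6, 129559365 to 129585828, plus strand). It had 24, 46 and 21 counts in the butyrate libraries and 10, 17 and 10 in the control libraries, or 4.44, 7.91 and 3.88 CPM and 1.80, 3.15 and 1.62 CPM. The groups did not overlap, and replicate 2 was the highest in both. The log2 fold change was 1.32 (SE 0.382, edgeR adjusted p = 0.0207). The call was lost without butyrate replicate 2 (0.93, adjusted p = 0.0857), control replicate 1 (1.21, 0.063) or control replicate 3 (1.14, 0.0686), within a range of 0.00232 to 0.0857 over 14 alternatives. Of its partners, Klri1 had 0 counts in all 6 libraries. Klri2 had 21.3, 20.6 and 9.42 CPM with butyrate and 13.9, 17.4 and 6.33 CPM in control. Klri2 was not called (log2 fold change 0.46, edgeR adjusted p = 0.35), but was called with the replicate block (0.46, adjusted p = 0.0239).

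Klre1 ends 2263 bases before the start of Klrd1 on the same strand, and these neighbours moved in opposite directions. The log2 ratio of Klre1 to Klrd1 was -4.34, -4.12 and -4.38 in the butyrate libraries and -6.60, -5.75 and -6.39 in the control libraries. The groups were far apart relative to their spread, with a difference of 1.97. An exact permutation test (two-sided) gave p = 0.1, its lower limit with 3 libraries in each group, and p = 0.25 after adjustment over 5 ratios.

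Klrg1, an inhibitory receptor for cadherins (gene 50928, chromosome 6, 122270596 to 122282833, minus strand), rose but stayed at a few counts. It had 15, 14 and 21 counts in the butyrate libraries and 3, 2 and 9 in the control libraries, which is 3.02 ± 0.767 and 0.79 ± 0.586 CPM (SD, n = 3 each). Control replicate 3 was the highest control and still below every butyrate library. The log2 fold change was 1.86 (SE 0.47, edgeR adjusted p = 0.0113) and 2.67 without control replicate 3 (adjusted p = 0.00501).

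Tyrobp, the gene of the ITAM adaptor DAP12 (gene 22177, chromosome 7, 30413782 to 30417582, plus strand), rose by the test but only just. It had 18, 15 and 17 counts with butyrate and 8, 4 and 13 in control, or 3.02 ± 0.39 and 1.43 ± 0.684 CPM (SD, n = 3 each). The groups did not overlap, and the log2 fold change was 1.04 (SE 0.374, edgeR adjusted p = 0.048). The call was lost in 7 of 14 alternatives: with DESeq2 (1.05, adjusted p = 0.162), with no filter (1.00, 0.0757), and without butyrate replicate 1 (0.96, 0.116), 2 (1.14, 0.0745) or 3 (1.01, 0.105), or control replicate 1 (1.04, 0.105) or 2 (0.75, 0.139). Tyrobp and Hcst face each other on chromosome 7 with their 3′ ends 129 bases apart. The log2 ratio of Tyrobp to Hcst was -3.25 ± 0.656 with butyrate and -4.89 ± 0.379 in control (SD, n = 3 each), with groups that did not overlap, a difference of 1.64 and an exact permutation p of 0.1 (adjusted 0.25).

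Tyrobp is also abundant in myeloid cells. The summed level of 15 macrophage and dendritic cell markers was 44.8, 53.5 and 68.4 CPM in the butyrate libraries and 36.4, 24.9 and 83.1 CPM in the control libraries. This sum leaves out Ccr2 and Itgam, a choice made after their values were seen. Itgam rose (51, 48 and 33.3 CPM with butyrate and 4.68, 3.34 and 4.22 CPM in control). Ccr2 fell (548, 620 and 537 CPM with butyrate and 800, 702 and 748 CPM in control). With both included, the sum was 644, 721 and 639 CPM with butyrate and 841, 730 and 835 CPM in control, most of it Ccr2. With Itgam alone added to the 15 markers, every butyrate library would lie above every control library. The highest sum of the 15 markers was in control replicate 3, which held the most Tyrobp of the controls but less than any butyrate library. Among the butyrate libraries, Tyrobp had 18, 15 and 17 counts, too close to rank against the sums. The sum of 15 markers was higher with butyrate in pairs 1 and 2 and lower in pair 3, an order that depends on the genes left out. Lyz2, the most abundant of these markers, had 10.2, 27.2 and 37.7 CPM with butyrate and 13.7, 8.35 and 45.6 CPM in control. Csf1r had 1, 8 and 1 counts with butyrate and 3, 1 and 12 in control, and Siglech had 0 in all 6. The part of these cells in the Tyrobp values was not tested.

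Fcer1g, the gene of the ITAM chain that NK1.1 and Fc receptors use (gene 14127, chromosome 1, 171229572 to 171234349, minus strand), was not called. It had 3.51, 4.47 and 8.87 CPM with butyrate and 3.6, 4.64 and 8.76 CPM in control. Same-numbered libraries were nearly equal, and replicate 3 was the highest in both groups. Its log2 fold change was -0.03 (SE 0.422, edgeR adjusted p = 0.962). Mast cells and basophils also express Fcer1g. The summed level of their markers was highest in replicate 3 of both groups too, but not every marker followed this order. Kit, the 1 marker called, was lowest in replicate 3 of both groups (11.7, 12 and 10.3 CPM with butyrate and 7.02, 5.19 and 3.24 CPM in control). Fcer1a, the chain that FCER1G carries in the IgE receptor, had 6, 3 and 47 counts with butyrate and 8, 11 and 35 in control. The summed level of 9 mast cell and basophil markers was 22.4, 22.4 and 61.2 CPM with butyrate and 20.3, 12.2 and 31.0 CPM in control. Their part in the Fcer1g values was not tested. The log2 ratio of Tyrobp to Fcer1g was -0.73 ± 0.664 with butyrate and -1.74 ± 0.539 in control (SD, n = 3 each), with overlapping groups (exact unpaired permutation p = 0.2, adjusted 0.333), and it was higher in 3 of 3 same-numbered pairs.

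**Figure D2:**
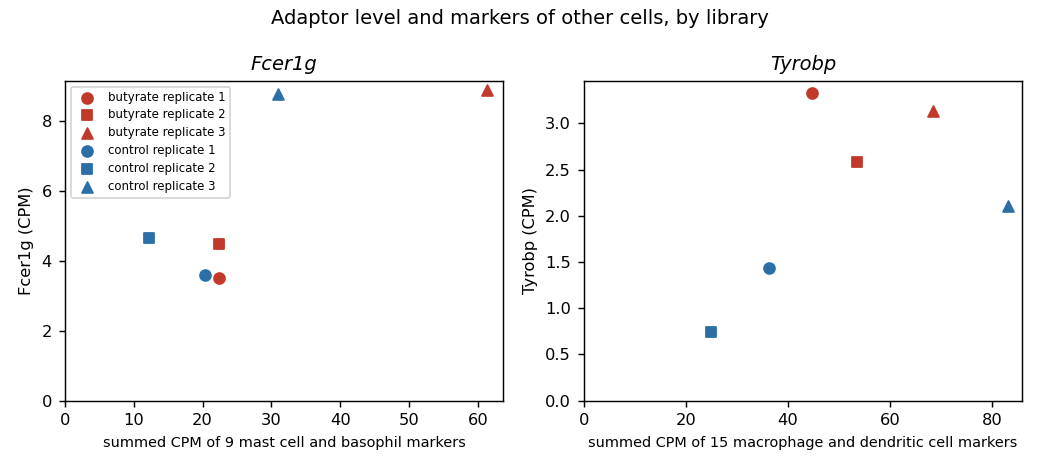
CPM of Fcer1g against the summed CPM of 9 mast cell and basophil markers (left) and of Tyrobp against the summed CPM of 15 macrophage and dendritic cell markers (right), 1 point per library, with butyrate in red and control in blue. The sum of 15 leaves out Ccr2 and Itgam, a choice made after their values were seen. For Fcer1g both replicate 3 libraries stand apart at the top (8.87 and 8.76 CPM), while for Tyrobp the 3 butyrate libraries lie above all controls.

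**Figure D3:**
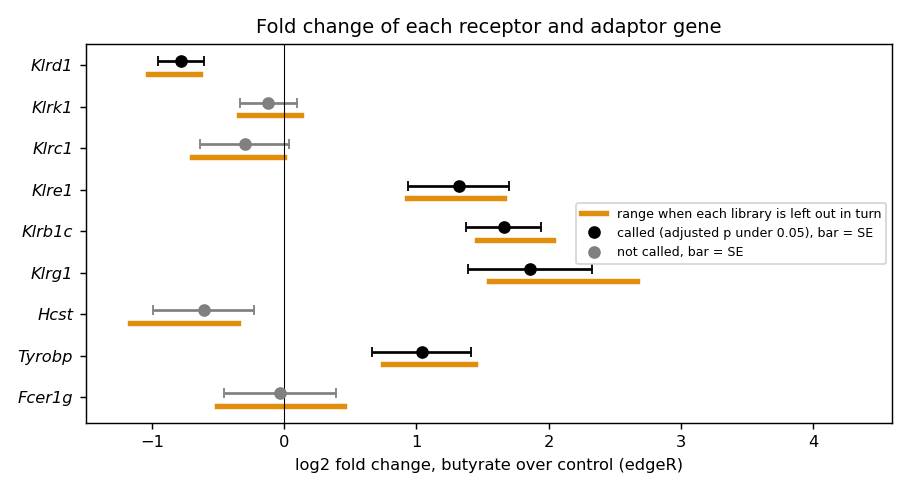
Log2 fold change, butyrate over control, of each receptor and adaptor gene, with bars for the SE and orange lines for the range when each library is left out in turn. Klrd1 lies below 0 and Klre1, Klrb1c, Klrg1 and Tyrobp above 0 over their whole ranges, while the ranges of Klrk1 (-0.34 to 0.13) and Fcer1g (-0.51 to 0.45) cross 0.

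To compare levels between genes, CPM were divided by the length in kilobases of exon (GENCODE vM21, union of exons). On this scale Klrd1, not Klrk1, was the highest receptor gene. With butyrate the order began with Klrd1 at 85.3 ± 23.4 CPM per kb, Hcst at 48.0 ± 27 and Klrk1 at 29.7 ± 4.1 (SD, n = 3), and the libraries of neighbours in this order overlapped. In control Klrd1 stood at 146 ± 16.9, Hcst at 73.0 ± 27.4 and Klrk1 at 32.2 ± 10.2 CPM per kb, with no overlap between neighbours, although Hcst and Klrk1 overlapped when the longest transcript was taken as the length. The other 6 genes averaged 1.55 to 6.43 CPM per kb with butyrate and 0.559 to 6.91 in control, and most neighbours among them overlapped. The exon length of Klrk1 is itself uncertain, at 7183 bases for the union and 3259 for the longest transcript.

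Over the 6 libraries, the tested genes of at least 10 CPM most like Klrk1 in log2 CPM were C920009B18Rik, Tns1 and Abcd4 (Pearson r = 0.983, 0.969 and 0.966, 9413 genes searched). Those most like Hcst were Mir142, Pomt1 and Tbc1d31 (r = 0.985, 0.973 and 0.970). Within the set, Hcst was closest to Klrc1 (r = 0.893) and Klrk1 ran opposite to Fcer1g (r = -0.906). These values describe 6 libraries that share 2 treatments and 3 replicate numbers, and the highest of 9413 values is large in any case.

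The receptor genes other than Klrg1 lie in the NK gene complex. Of the 29 genes of the table between the start of Klrb1c and the end of Klrc1 (chromosome 6, 128778485 to 129682852, 904 kb), 15 passed the filter, and 2 were called higher and 5 lower, 46.7% against 45.9% of all genes. The 2 called higher were the receptor genes Klrb1c and Klre1. Of the 10 tested genes outside the set, 0 were called higher by edgeR (2 at an unadjusted p under 0.05, 0 by DESeq2, 1 by limma voom). Upper quartile scaling and the replicate block each called 2 of these higher, and 4 in the whole interval. Without butyrate replicate 2 or control replicate 1, 1 gene of the interval was called higher, and without butyrate replicate 1 or control replicate 3, 1 of those outside the set. Besides Klrd1, the genes called lower were Clec2d, Clec2i, BC035044 and 2310001H17Rik. Clec2d, a ligand of inhibitory NKR-P1 receptors, had 73.6, 74.8 and 88.0 CPM with butyrate and 181, 150 and 156 CPM in control (log2 fold change -1.04, SE 0.107, edgeR adjusted p = 0.000141). Clec2i, a ligand gene of the same family, fell to 32.4 ± 2.61 CPM with butyrate, against 47.3 ± 6.94 CPM in control (SD, n = 3 each, edgeR adjusted p = 0.00729). BC035044 overlaps Clec2i, so reads cannot be told apart where the strand is not counted. The call of 2310001H17Rik (log2 fold change -0.41, adjusted p = 0.0251) was lost without butyrate replicate 3 (0.0728), control replicate 1 (0.0661) or 3 (0.0754), with DESeq2 (0.133) and with upper quartile scaling (0.0572).

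**Figure D4:**
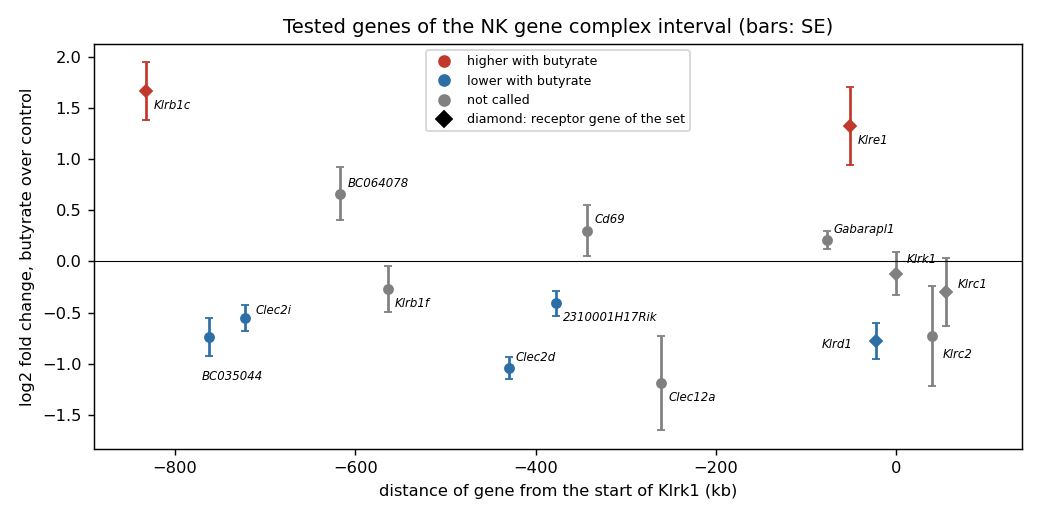
Log2 fold change, butyrate over control, with SE bars for the 15 tested genes of the NK gene complex interval against their distance from the start of Klrk1 (kb), diamonds being receptor genes of the set. Klrb1c (1.66) and Klre1 (1.32) are the only calls above 0, and Klre1 and Klrd1 (-0.78) lie next to each other with opposite signs.

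Lectin-like genes of the whole complex outside the set were mostly silent. Of 34 on the list, 33 were in the table, 7 had 0 counts in all libraries and 9 were tested. Of these 9, 1 rose and 2 fell (Clec2d and Clec2i), with a median log2 fold change of -0.55 (0.00 over all tested genes). That is 33.3% called, against 45.9% of all tested genes. The 1 that rose, Klra5 of the Ly49 family, had 11, 20 and 20 counts with butyrate and 9, 9 and 6 in control (log2 fold change 1.11, edgeR adjusted p = 0.0342). It passed the filter through 3 butyrate libraries and 0 control libraries. Its call was lost in 7 of 14 alternatives, at 0.135 at most. Under the replicate block the counts were 2 higher and 4 lower. Without butyrate replicate 1 there were 2 higher, without any other single library 0, and without control replicate 1 there were 4 lower. Ly49 genes are near-identical copies, so their counts are uncertain.

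NK-type receptors of other families moved in both directions. Of 16, 12 were tested, 2 rose and 3 fell (median log2 fold change -0.05). That is 41.7% called, against 45.9% of all tested genes. Tigit, an inhibitory receptor for nectins, rose to 153 ± 20.3 CPM with butyrate, against 55.6 ± 9.04 CPM in control (SD, n = 3 each, log2 fold change 1.46, edgeR adjusted p = 0.000111). Cd226 and Cd96, which bind the same ligand family, fell. Cd226 stood at 50.6 ± 4.03 CPM with butyrate and 96.4 ± 7.66 CPM in control (-0.93, adjusted p = 0.000158), and Cd96 at 50.8 ± 0.495 and 143 ± 17.4 CPM (-1.49, adjusted p = 3.4e-05). Cd160, a receptor for HVEM and class I molecules, fell by 0.76 on the log2 scale. The call of Slamf6 (0.60, adjusted p = 0.0413) was lost without butyrate replicate 1 (0.127) or 3 (0.0675), control replicate 2 (0.0986) or 3 (0.113), and with robust edgeR (0.0517), and its groups overlapped. The number called higher was 4 with the replicate block, upper quartile scaling, no filter or DESeq2, and 1 with robust edgeR or without butyrate replicate 3 or control replicate 2.

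Ligands of the receptors were also transcribed in these cultures. Of 13 on the list 9 were matched and 3 were tested (66.7% called, against 45.9% of all tested genes). Cdh1, which encodes the KLRG1 ligand E-cadherin, rose together with Klrg1. It had 17.4, 28.5 and 26.6 CPM with butyrate and 6.12, 5.94 and 10.1 CPM in control (log2 fold change 1.70, SE 0.255, edgeR adjusted p = 0.000848). Ulbp1 (MULT1), a ligand of NKG2D, had 53.8, 44.4 and 51.2 CPM with butyrate and 69.8, 74.2 and 73.0 CPM in control, with no overlap, and fell (log2 fold change -0.54, SE 0.0956, adjusted p = 0.00197). The H60 and Raet1 genes in the table had at most 2 counts in a library. H2-T23, which encodes the NKG2A ligand Qa-1b, was not called (153 ± 15.4 CPM with butyrate and 181 ± 28.4 CPM in control, adjusted p = 0.143), but was with the replicate block (log2 fold change -0.24, adjusted p = 0.0213).

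Other receptors that use Tyrobp or Fcer1g numbered 26, of which 6 were tested and 0 called by edgeR (1 at an unadjusted p under 0.05). limma voom called 0, while DESeq2 and the replicate block each called 1 higher, as did the fit without control replicate 3. The most abundant, Pilrb1, had 10.2 ± 1.36 CPM with butyrate and 13.5 ± 1.81 CPM in control (SD, n = 3 each, edgeR adjusted p = 0.086). Of the ITAM chains of antigen receptors, 2 of 5 tested fell (40% called, against 45.9% of all tested genes). Cd247 (CD3 zeta) had 213 ± 9.08 CPM with butyrate and 327 ± 14.4 CPM in control (-0.62, adjusted p = 0.000401), and Cd3e 206 ± 10 and 314 ± 27.4 CPM (-0.61, adjusted p = 0.000816). Without butyrate replicate 1, 4 of the chains were called lower, among them Cd3d, whose log2 fold change was then -0.46 (adjusted p = 0.00436), against 0.05 with all libraries.

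Kinases and scaffolds downstream of the adaptors fell in 10 of 22 tested genes and rose in 4 (median log2 fold change -0.21). Lcp2, the scaffold SLP-76, fell by 0.89, Pik3r1, the regulatory subunit of phosphatidylinositol 3-kinase, by 0.59, and Bcl10 by 0.58 on the log2 scale (edgeR adjusted p = 0.000379, 0.000485 and 0.000536). Plcg2, the phospholipase isoform of B and NK cells, rose to 35.2 ± 2.13 CPM with butyrate, against 18 ± 3.85 CPM in control (SD, n = 3 each, adjusted p = 0.0012). Grb2, an adaptor that DAP10 recruits, rose by a log2 fold change of 0.33 (adjusted p = 0.00653). Vav2 rose by 0.85 (adjusted p = 0.0183), a call lost without butyrate replicate 1 (0.052) or 2 (0.0501) or control replicate 3 (0.0648) and with DESeq2 (0.0823), which called 2 of the list higher. Syk was not called (8.11 ± 2.17 CPM with butyrate and 5.14 ± 1.45 CPM in control, adjusted p = 0.0963), but was with the replicate block (log2 fold change 0.66, adjusted p = 0.0165). Zap70 fell to 163 ± 30.3 CPM with butyrate, against 223 ± 30.1 CPM in control (-0.45, adjusted p = 0.0307), a call lost without butyrate replicate 1 (0.078) or 3 (0.0916) or control replicate 2 (0.117) or 3 (0.0618) and with upper quartile scaling (0.0624). Syk and Zap70 were picked from the list after their values were seen, for their direct binding to ITAMs.

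Of 8 phosphatases and ubiquitin ligases that restrain these receptors, 2 rose and 4 fell (median log2 fold change -0.13). Ptpn6, the phosphatase SHP-1 that inhibitory receptors such as NKG2A recruit, fell to 88.9 ± 6.06 CPM with butyrate, against 183 ± 37.3 CPM in control (SD, n = 3 each, log2 fold change -1.04, edgeR adjusted p = 0.000532). Ubash3b and Cblb, which damp tyrosine kinase signals, rose by log2 fold changes of 1.01 and 0.63 (adjusted p = 0.000281 and 0.00374). Inpp5d (SHIP-1), a phosphatase that KLRG1 is known to recruit, fell by 0.32 (0.018), a call lost without butyrate replicate 2 (0.0593) or control replicate 3 (0.0746) and with upper quartile scaling (0.0545). Csk fell by 0.25 (0.0243), a call lost without butyrate replicate 3 (0.0602) or control replicate 1 (0.0937), 2 (0.0508) or 3 (0.0637) and with upper quartile scaling (0.0972). Counts called lower were 1 without control replicate 3 or with upper quartile scaling, and 2 without butyrate replicate 2 or 3 or control replicate 1 or 2.

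Transcription factors of NK and effector T cells were called in 11 of 17 tested, 4 higher and 7 lower (median log2 fold change -0.05). Prdm1, which encodes BLIMP-1 of terminal effector cells, rose to 179 ± 27.1 CPM with butyrate, against 34.4 ± 8.73 CPM in control (SD, n = 3 each, log2 fold change 2.38, edgeR adjusted p = 4.64e-05). Nfil3, which NK cell development requires, rose to 302 ± 28.8 CPM with butyrate, against 118 ± 27.5 CPM in control (1.36, adjusted p = 0.000244), and Irf8 by a log2 fold change of 1.11 (adjusted p = 0.000515). Bcl11b, the T lineage factor whose loss lets T cells take on NK receptors, fell by 0.77, Ikzf2 by 0.62 and Zeb1 by 0.53 on the log2 scale (adjusted p = 0.000855, 0.000681 and 0.00305). Runx3, picked after its values were seen for its link to the motif above, was not called (266 ± 9.91 CPM with butyrate and 255 ± 7.92 CPM in control, adjusted p = 0.534).

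**Figure D5:**
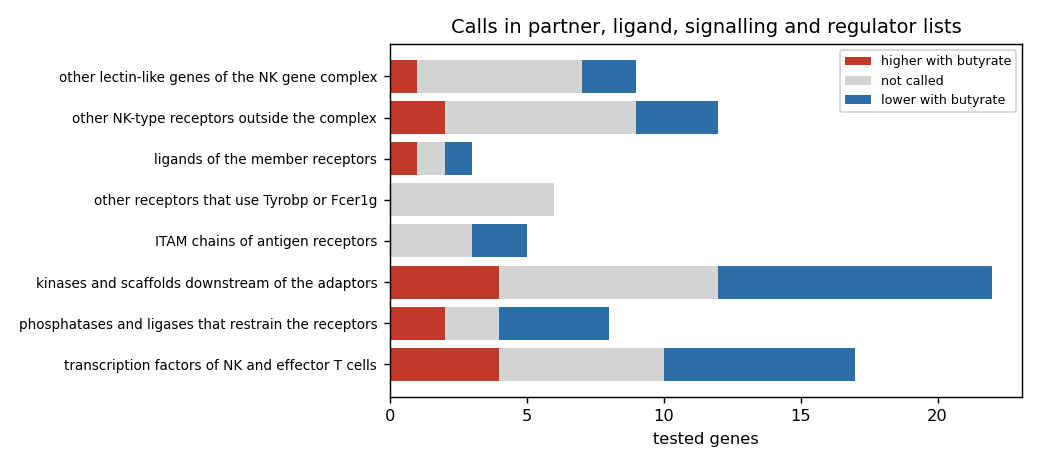
Number of tested genes called higher with butyrate (red), not called (grey) and called lower (blue) by edgeR in each list of partner, ligand, signalling and regulator genes. Kinases and scaffolds (4 higher, 10 lower of 22) and transcription factors (4 higher, 7 lower of 17), the lists with the most tested genes, hold most of the calls. Their shares called were 63.6% and 64.7%, against 75% of phosphatases and ligases and 45.9% of all tested genes. The other receptors that use Tyrobp or Fcer1g hold 0 calls.

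Markers of other cells that could carry these receptors were tested in few genes, and the counts called stand beside 45.9% of all tested genes. Of the 8 NK cell markers 2 were tested and 0 called by edgeR (0 at an unadjusted p under 0.05, and 0 by DESeq2 or limma voom, 1 with the replicate block), and their summed level was 17.6 to 25.9 CPM with butyrate and 12.7 to 23.4 CPM in control, most of it Klri2. Of 8 innate-like and gamma delta T cell markers, 5 were matched and 3 tested, and 1 fell, the receptor constant gene Trdc. It had 168 ± 25.7 CPM with butyrate and 439 ± 29.1 CPM in control (SD, n = 3 each, log2 fold change -1.39, edgeR adjusted p = 7.21e-05). Zbtb16, the defining factor of natural killer T cells, had 1, 1 and 2 counts with butyrate and 0, 3 and 4 in control. Without butyrate replicate 3 or control replicate 1, and with the replicate block, 1 of these markers was called higher. Among macrophage and dendritic cell markers, 6 were tested, 1 rose (Itgam) and 1 fell (Ccr2), both also genes of activated T cells, and 2 were called higher without control replicate 3. Mast cell and basophil markers rose in 1 of 4 (Kit), in 2 without butyrate replicate 1 or any 1 control library, in 3 with DESeq2 and in 4 with no filter. The summed level of this list was higher with butyrate in 3 of 3 same-numbered pairs. Cxcr2, like Cd4, reached the filter's level in 3 butyrate libraries and 0 control libraries, so neither could well be called lower. Granulocyte markers rose in 1 of 1 (Cxcr2), CD4 T cell markers in 1 of 2 (Cd4, with the other called lower without control replicate 1 or with the block) and B cell markers in 0 of 1 (Cd79b at 11.9 ± 2.89 CPM with butyrate and 13.4 ± 3.79 CPM in control, SD, n = 3 each; 0 at an unadjusted p under 0.05, and 0 by DESeq2 or limma voom). CD8 T cell markers fell in 2 of 8, Trbc1 and Cd3e, and in 4 without butyrate replicate 1. With the block 1 CD8 marker was called higher. The part of any of these cells in the receptor values was not tested.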

How the data were processed

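The deposited table holds raw counts of reads per Entrez gene, made by the authors, with 1 column per library, matched to samples by the labels. The submitters' processing notes list featureCounts and Subread, TopHat, CASAVA, Picard, edgeR and the build mm10, without versions. The strand setting and the treatment of shared reads were not given in the sources used. Of 27179 gene numbers, 25275 were named from RefSeq's GRCm38.p6 table (the assembly of mm10) and 18 from GENCODE vM21. The 1886 unnamed numbers (0.961% to 1.2% of counts) stayed in the tests.

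Genes were tested for butyrate against control in edgeR 4.0.16 (quasi-likelihood F test, TMM, filterByExpr, R 4.3.3, Benjamini-Hochberg over 11740 genes), checked first on simulated counts. That check changed few genes, equally up and down, with a common dispersion, so it does not cover changes as widespread as those here. The SE was taken as the size of the log2 fold change over the root of F. As alternatives, scaling was by RLE, total counts or the upper quartile, and other fits used no filter, 5 CPM in 3 libraries, DESeq2 1.42.0, limma voom (limma 3.58.1), robust edgeR, a replicate block and each library left out. Ratios were differences of log2 CPM (prior count 2), compared by exact permutation tests. Limits from counts cover counting error only.

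Same-numbered libraries deviated together from their group means (r = 0.432, 0.21 and 0.376 over 9414 genes). All others were negative, which centring on the group means in part forces. Because of the positive values, the numbers were used as pairs where pairs are counted and in the replicate block. The main fit and the permutation tests were unpaired, so their p-values do not use the pairing. That pairing comes from the data, and no label names what the numbers share. Libraries of 1 group differed beyond sampling noise (chi-square 5.43 to 10.6 times its degrees of freedom) and each counted as 1 replicate. Since no label ties replicates to separate mice or cultures, p-values reflect only how far these samples vary, which may be technical.

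The 9 genes, the 18 gene lists (215 of 224 entries matched) and the tests were chosen with earlier results of these data known. Beside the 9 genes, up to 3 called genes per list and direction with the smallest p are named, or the most abundant where none was called. Genes outside this rule are named as defining markers, close relatives or partners, or as picked after their values were seen.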

Additional observations from a re-analysis of the deposited data

How the results depend on the processing

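All 30 recounts of genes called higher or lower over the whole table stayed within 1.5 times of the main counts (2369 to 2633 higher and 2118 to 2552 lower without 1 library). Of the set, 4 genes were called higher and 1 lower; these counts were 1 higher with the filter of 5 CPM in 3 libraries, which left 5 of the 9 genes to test, and 2 lower with the replicate block, which added Hcst. Without 1 library, 2 to 3 were higher and 1 to 2 lower. Besides Hcst, the replicate block changed no call among the 9 genes. Outside the set it added calls, among them Klri2, H2-T23 and Syk. Of the 9 genes and those named by rule, those whose log2 fold change turned sign were not called in any fit: Fcer1g (0.05 with upper quartile scaling, -0.51 to 0.45 without 1 library) and Klrk1 (-0.34 to 0.13 without 1 library). None of 35 recomputed ratio differences moved by more than 1 SD. Of 570 recounted list calls, 60 moved by over 1.5 times, mostly counts of 1 or 2; the cause was not tested. Depth limits Klrg1, Tyrobp and Klre1 most, at 2 to 46 counts a library.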
